A study of Mus musculus with 115 samples.

Results

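Voltage-gated ion channels open and close with the potential across the cell membrane, and potassium, sodium and calcium channels together shape the action potential and calcium entry of nerve, muscle and hormone-secreting cells. The genes followed here were listed by name, with earlier results of these data known. They are the potassium channel pore subunits Kcnq5 and Kcnh2 and the sodium channel pore subunits Scn3a and Scn9a. With them come the calcium channel pore subunits Cacna1a and Cacna1d and the calcium channel auxiliary subunit Cacna2d1. Together the genes are 7 of the 45699 in the expression table, and all 7 were found by their Ensembl identifiers. Kcnq5 encodes a subunit of the M-type current, which damps repeated firing. The reference gene is Chga, chromogranin A, a protein of secretory granules that is used as a marker of neuroendocrine cells, the hormone-secreting cells from which or towards which some prostate tumors develop.

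The RNA-seq libraries are labelled as prostate tumor tissue and come from transgene-positive male F2 mice of a cross between TRAMP, in which the SV40 T antigen is driven by the prostate-directed probasin promoter, and the strain WSB/EiJ. Each library has its own name and is taken here as 1 mouse. All carry the same label, so the design has no treated and control groups, and each mouse carries its own mixture of the parental genomes. By the methods of the study small prostates gave RNA of the ventral prostate, and tumor was not checked by pathology where organ weight stood for tumor burden, so a library need not be mostly tumor. Values are TPM, a transcript abundance scaled per length and per library, so levels of different genes can be set side by side. Read depth is unknown from TPM.

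The libraries were not 1 homogeneous collection. On the first principal component of 14509 genes, which held 48.3% of the variance, they separated into a larger set of 79 and a smaller set of 36. Those genes left out the 7 channel genes, Chga and the listed family and marker genes. Relations below were computed within a set, except those in the parts of a mixture on Chga, which cross the sets. The prostate luminal markers, 8 keratin, adhesion and androgen-response genes, summed to 372-1661 TPM in the larger set and to 21.4-1805 TPM in the smaller set. Within the smaller set Chga separated again: 4 libraries lay at 0.15, 1.15, 1.23 and 2.55 TPM, and the other 32 lay between 21.2 and 479 TPM. The 4 libraries had luminal marker sums of 1058-1805 TPM and sums of 8 proliferation genes of 647-825 TPM. Counts of channel genes called in the smaller set are therefore given with and without these 4. In bulk tissue, fewer cells of a type and less RNA per cell cannot be told apart. The sets were drawn from the data and are described side by side without a test between them.

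Among the promoters, 5 of the 7 genes had an entry in the RefSeq table on GRCm38.p6. Scn3a and Cacna1a had none. The 250 bases before the start are shown for the entries of Kcnq5, Scn9a and Cacna2d1 whose start is also that of the gene in the GENCODE M21 annotation. Those of Chga, the gene they are set against below, are shown too. The start of the Chga entry is not that of GENCODE M21. Capitals mark GGGCGG or CAGCTG on either strand, and each sequence reads 5′ to 3′ on the strand of its gene.
Kcnq5, chr1:21961943-21962192, minus strand: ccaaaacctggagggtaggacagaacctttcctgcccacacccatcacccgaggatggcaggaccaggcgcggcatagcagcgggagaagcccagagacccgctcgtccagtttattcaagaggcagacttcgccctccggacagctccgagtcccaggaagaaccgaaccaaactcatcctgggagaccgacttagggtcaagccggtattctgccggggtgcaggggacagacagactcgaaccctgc
Scn9a, chr2:66634963-66635212, minus strand: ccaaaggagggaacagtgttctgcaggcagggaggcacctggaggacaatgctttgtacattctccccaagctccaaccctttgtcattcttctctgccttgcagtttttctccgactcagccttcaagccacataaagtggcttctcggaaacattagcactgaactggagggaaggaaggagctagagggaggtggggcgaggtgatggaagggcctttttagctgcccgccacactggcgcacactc
Cacna2d1, chr5:15934441-15934690, plus strand: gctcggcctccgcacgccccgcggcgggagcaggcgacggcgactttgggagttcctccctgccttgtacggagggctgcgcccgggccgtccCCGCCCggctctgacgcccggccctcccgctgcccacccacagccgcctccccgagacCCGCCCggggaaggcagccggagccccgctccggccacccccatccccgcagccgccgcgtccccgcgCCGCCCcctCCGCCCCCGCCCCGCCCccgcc
Chga, chr12:102554691-102554940, plus strand: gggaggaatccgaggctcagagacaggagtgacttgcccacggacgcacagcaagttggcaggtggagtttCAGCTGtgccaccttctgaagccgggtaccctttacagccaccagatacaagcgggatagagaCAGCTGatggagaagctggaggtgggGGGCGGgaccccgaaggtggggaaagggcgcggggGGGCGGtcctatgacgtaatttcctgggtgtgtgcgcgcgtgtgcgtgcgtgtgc
A total of 4 motifs were searched on both strands. GGGCGG, a GC box, occurred 6 times before Cacna2d1 and 2 times before Chga and is in 32.7% of all 32851 promoters of that length. CAGCTG, an E-box, occurred 2 times before Chga and is in 13% of all promoters. TTCAGCACC, 1 arm of the element bound by the neuronal repressor REST, is in 0.301% of all promoters and TGACGTCA, a cyclic AMP response element, in 1.55%. Neither was in these 4 windows, and the Kcnq5 and Scn9a windows held none of the 4 motifs. Of the entries not shown, that of Kcnh2 held GGGCGG 3 times. An entry of Cacna1d, at chr14:30353487-30353736, held GGGCGG 5 times and CAGCTG 1 time.

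Kcnq5 lies on chromosome 1 at 21398403-21961942 on the minus strand (GRCm38) and was a low-abundance transcript throughout. In the larger set its level was 0.06 TPM in the lowest library, 0.43 TPM at the median and 1.90 TPM in the highest. In the 32 Chga-high libraries it was 0.14, 1.13 and 3.51 TPM, and in the 4 Chga-low libraries of the smaller set 0.13, 0.40, 0.54 and 0.38 TPM. The ranges overlapped widely, and 12 of 79 libraries against 21 of 32 reached 1 TPM. Kcnh2, which encodes the ERG channel known from cardiac repolarization, also overlapped. It was 0.15, 3.12 and 8.71 TPM (lowest, median, highest) in the larger set and 2.89, 4.54 and 10.8 TPM in the 32 libraries. The first quartile of the larger set, 2.08 TPM, lay below every one of the 32.

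The sodium channel genes behaved otherwise. Scn3a, the Nav1.3 pore subunit of developing neurons, had levels of 0.02, 0.16 and 2.88 TPM in the larger set and 1.13, 46.8 and 96.6 TPM in the 32 libraries. It was the highest of the 7 genes in the latter, above Cacna2d1 in 26 of 32 libraries. The 2 libraries lowest in Scn3a among the 32, at 1.13 and 2.93 TPM, had Chga at 21.2 and 115.2 TPM and the next lowest of the 32 was at 19.3 TPM. Of the 4 Chga-low libraries, 3 had Scn3a at 0.28-0.55 TPM and the fourth at 6.41 TPM. Scn9a, the Nav1.7 pore subunit of sensory and sympathetic neurons, was listed at 0 in 22 of the 79 libraries of the larger set, where its median was 0.03 TPM and its highest 1.69 TPM. In the 32 libraries it was 0.20, 1.17 and 10.1 TPM, and in the 4 Chga-low libraries 0.02-0.08 TPM.

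The calcium channel genes were also low in the larger set and higher in the 32 libraries, each to a different degree. Cacna1a, the P/Q-type pore subunit of nerve terminals, was 0.29, 1.14 and 4.60 TPM in the larger set and 2.28, 12.9 and 57.9 TPM in the 32. The 4 Chga-low libraries had Cacna1a at 3.53-8.50 TPM, so 3 of the 4 lay above every library of the larger set. Cacna1d, an L-type pore subunit of secretory and pacemaker cells, was 0.12, 0.47 and 4.28 TPM in the larger set, 1.39, 3.82 and 10.6 TPM in the 32, and 0.09-0.77 TPM in the 4. Cacna2d1, the alpha2delta-1 subunit that carries pore subunits to the membrane, was 0.56, 3.52 and 13.7 TPM in the larger set, 1.68, 27.4 and 91.7 TPM in the 32 and 1.31-3.66 TPM in the 4. The order of medians in the larger set was Cacna2d1, Kcnh2, Cacna1a, Cacna1d, Kcnq5, Scn3a, Scn9a. Cacna2d1 exceeded Kcnh2 in 49 of 79 libraries and Cacna1d exceeded Kcnq5 in 38 of 79, so neither pair of neighbours was ordered beyond the spread. In the 32 libraries Scn9a exceeded Kcnq5 in 16 of 32.

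**Figure D1:**
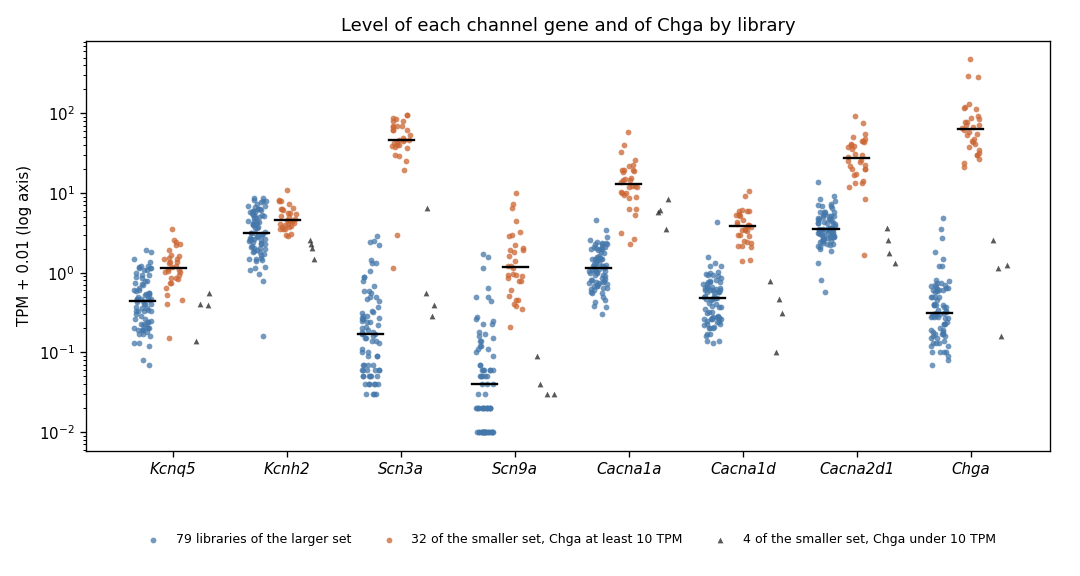
TPM + 0.01 on a log axis for the 7 channel genes and Chga, 1 point per library; lines are medians, blue the 79 libraries of the larger set, orange the 32 Chga-high and black triangles the 4 Chga-low libraries of the smaller set. Kcnh2 overlaps between blue and orange, whereas Scn3a moves from a median of 0.16 to 46.8 TPM; the 4 triangles lie with blue or below it for every channel gene except Cacna1a and, in 1 library, Scn3a.

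The question put to these data was whether the channel genes vary with Chga. Each gene averaging 0.1 TPM or more over all libraries was fitted on Chga, both as log2(TPM + 1), with limma, and p-values were adjusted over all genes by Benjamini-Hochberg. In the larger set all 7 channel genes rose with Chga, where 19% of 23164 genes rose and 0.121% fell. Scn9a followed Chga most closely (Pearson r = 0.918, slope 0.56 ± 0.03 SE in log2 units per log2 unit, adjusted p = 2.41e-30), then Scn3a (r = 0.785, slope 0.78 ± 0.07, adjusted p = 4.63e-16). Kcnq5 had r = 0.552 (slope 0.43 ± 0.07, adjusted p = 3.64e-06). For Kcnq5 Spearman rho was 0.480 (permutation p = 2e-05, 100000 resamples, two-sided), and r was 0.577 once the 2 most extreme libraries in Chga were left out. Cacna2d1 had r = 0.520 (adjusted p = 2.55e-05), Kcnh2 0.418 (0.00176), Cacna1a 0.397 (0.00368) and Cacna1d 0.327 (0.0216). Without the same 2 libraries r was 0.856 for Scn9a, 0.677 for Scn3a, 0.501 for Cacna2d1, 0.340 for Kcnh2, 0.326 for Cacna1a and 0.347 for Cacna1d. The rank correlations of the 7 genes lay between 0.353 and 0.633, with 0.633 for Scn9a and 0.615 for Scn3a. Libraries W5000 to W5005 of the larger set had sums of the proliferation genes of 5.67-8.35 TPM, against a set median of 46.8 TPM. Their Scn3a was 0.67-2.47 TPM and their Chga 0.48-2.76 TPM. The relations were not computed without these libraries. With the first principal component of the set as a covariate Cacna1d no longer passed (adjusted p = 0.164). In the 78 libraries of the low part of a mixture on Chga neither Cacna1d (adjusted p = 0.0782) nor Cacna2d1 (r = 0.258, adjusted p = 0.0634) passed. That part is not within the larger set: it leaves out 4 larger-set libraries and takes in W1118, W1050 and W1915 of the smaller set. Under median-of-ratios scaling all 7 still rose, while the genes called split into 2741 rising and 1672 falling, against 4396 and 28 in TPM and 5030 and 624 after leaving out the 20 most abundant genes.

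Chga itself was low in the larger set, with a median of 0.30 TPM and a highest value of 4.84 TPM. It moved there with markers of nerve, of neuroendocrine cells and of several other cell types. Of 8 peripheral neuron markers 7 were tested and all 7 rose with Chga (median r 0.860 against 0.158 over all genes), among them Nefm, a neurofilament (r = 0.922), Nefl (0.901) and Dbh, the noradrenaline enzyme (0.879). Their summed level ranged from 0.31 to 184 TPM in the larger set. Of the Schwann cell list, the glia of peripheral nerve, 5 of 6 tested rose. Of the neuroendocrine list 9 of 10 rose, with a median r of 0.876. The exception was the neuroendocrine transcription factor Insm1 (r = 0.06), whose highest level in the larger set was 0.08 TPM. Of the prostate luminal list 1 of 8 rose and of the proliferation list 0 of 8, by limma, and none fell. All these counts stand against 19% of all genes that rose with Chga in the larger set. Of the remaining lists, 6 of 6 fibroblast (median r 0.338), 7 of 7 skeletal muscle (0.368) and 5 of 6 endothelial genes (0.388) rose. Of the smooth muscle genes 4 of 8 rose (0.284) and of the leukocyte genes 0 of 6 (0.0887). No gene of these lists fell. At an unadjusted p under 0.05 by limma the proliferation and leukocyte lists still had 0 genes in either direction. Smooth muscle then had 7 of 8 rising, and the other marker lists kept their counts. The part of these other cell types in the relations of the channel genes with Chga was not tested.

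**Figure D2:**
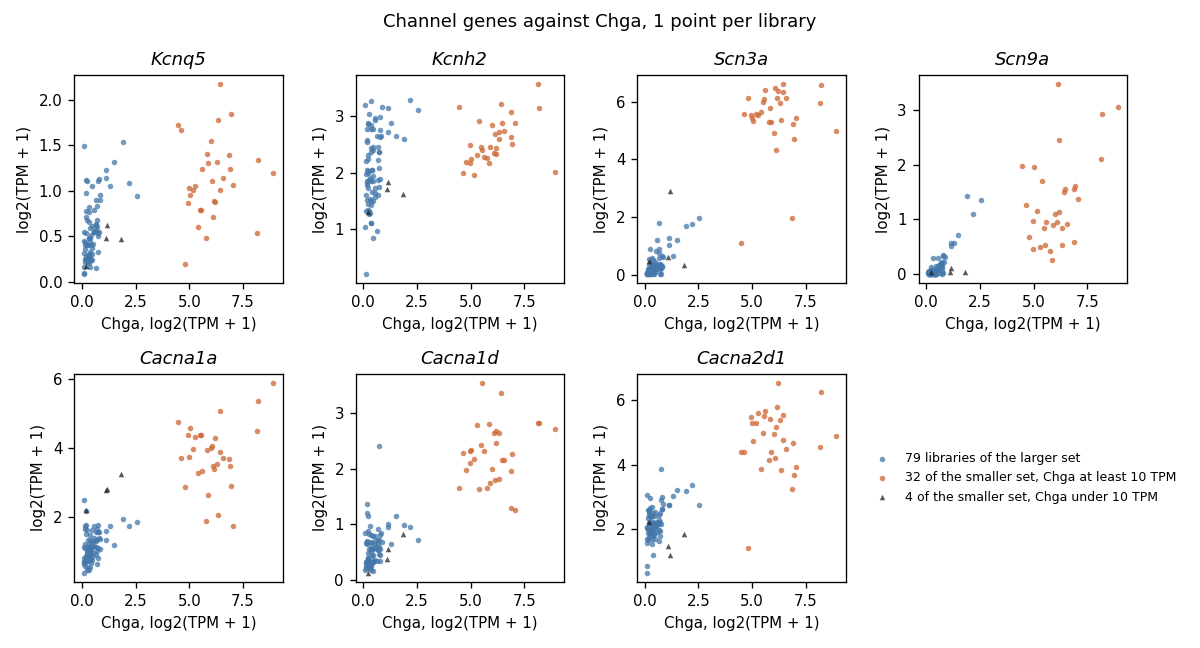
Each channel gene against Chga, both as log2(TPM + 1), 1 point per library, colored as in the plot of levels. Within the blue set Scn9a and Scn3a lie closest to a line (r = 0.918 and 0.785); in the 32 orange libraries with Chga of at least 10 TPM none of the 7 passes the threshold.

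In the smaller set all 7 channel genes again rose with Chga over the 36 libraries, where 8.69% of 23166 genes rose and 19.2% fell, with r from 0.402 for Cacna1a to 0.701 for Kcnh2 and 0.468 for Kcnq5. Without the 4 Chga-low libraries these calls ended: over the 32 others, 0 of the 7 passed by limma, where 4.82% of 23156 genes rose and 0.134% fell. At an unadjusted p under 0.05, 2 of the 7 did: Scn9a (r = 0.472, adjusted p = 0.0700, permutation p = 0.00649) and Kcnh2 (r = 0.405, adjusted p = 0.156, permutation p = 0.0212). Their slopes were 0.37 ± 0.12 and 0.15 ± 0.06 over the 32 libraries, against 0.28 and 0.18 over the 36. With the 2 libraries most extreme in Chga left out of the 32, r was 0.200 for Scn9a and 0.594 for Kcnh2. Kcnq5 had r = 0.121 (permutation p = 0.507), and Scn3a, the most abundant, r = 0.117 (permutation p = 0.516). Cacna1a, Cacna1d and Cacna2d1 had r of 0.200, 0.158 and 0.0975. By ranks over the 36 libraries only Kcnh2 passed (limma adjusted p = 0.0221), and with the first principal component as a covariate only Kcnh2 and Scn9a did (adjusted p = 0.000349 and 0.00357). Kcnq5 did not pass there (adjusted p = 0.156). Whether r differs between the 2 sets was not tested. In all, 14 relations of channel genes with Chga were computed, 7 in each set, and the 7 of the smaller set were computed again over the 32 libraries.

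A wider list held 96 other channel genes in 12 families and subunit classes, which are voltage-gated channels, their auxiliary subunits and the calcium-activated potassium channels, some of them gated by calcium and not by voltage. In the larger set 59 of the 85 tested rose with Chga and 0 fell by limma (median r 0.386 against 0.158 over all genes), where 19% of all genes rose. Among them were Kcnq3, of the family of Kcnq5 (r = 0.766), and all 4 sodium channel beta subunits (Scn3b 0.805). Of the 4 calcium channel beta subunits only Cacnb1 rose. Over the 36 libraries of the smaller set 30 of 85 rose and 11 fell, where 8.69% of all genes rose and 19.2% fell. In the 32 Chga-high libraries 2 of 85 rose, where 4.82% of all genes did, among them Kcnn3, a calcium-activated potassium channel (r = 0.537), with a median r of 0.03 against 0.09 over all genes.

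Among themselves the channel genes rose together in all 21 pairs in the larger set, but so did much of the transcriptome: 65% of all genes rose with Kcnq5, 70.9% with Kcnh2, 69.9% with Cacna1a, 65% with Cacna1d and 77% with Cacna2d1, against 21.2% with Scn3a and 25.1% with Scn9a. The count of pairs is therefore read against a high background. The sodium channel pair had r = 0.818. Kcnq5 and Cacna2d1 had r = 0.787. In the smaller set 6 of 21 pairs passed, where 0.00432% of all genes rose with Kcnq5, 3.03% with Kcnh2, 17.9% with Scn3a, 1.81% with Scn9a, 21.6% with Cacna1a, 24.1% with Cacna1d and 22% with Cacna2d1. In the 32 libraries 4 pairs passed. These were Cacna1a with Cacna1d (r = 0.628, adjusted p = 0.0015), Cacna1d with Cacna2d1 (0.499, 0.0173), Cacna1a with Cacna2d1 (0.458, 0.0312) and Scn3a with Cacna1d (0.535, 0.0123), against 19.7% of genes that rose with Cacna1a, 17.6% with Cacna1d, 13.8% with Cacna2d1, 11.8% with Scn3a, 9.29% with Kcnh2, 0.795% with Scn9a and 0.00432% with Kcnq5. With the first principal component as a covariate over the 36 libraries, Cacna1a with Cacna1d still passed (adjusted p = 0.00438), whereas Cacna1d with Cacna2d1 and Cacna1a with Cacna2d1 did not (adjusted p = 0.150 and 0.114). Scn3a and Scn9a, which lie within 1 cluster of sodium channel genes on chromosome 2, had r = -0.215 in the 32 libraries (permutation p = 0.233). Kcnq5 passed with no other channel gene there, its r with them lying between -0.278 and 0.190.

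**Figure D3:**
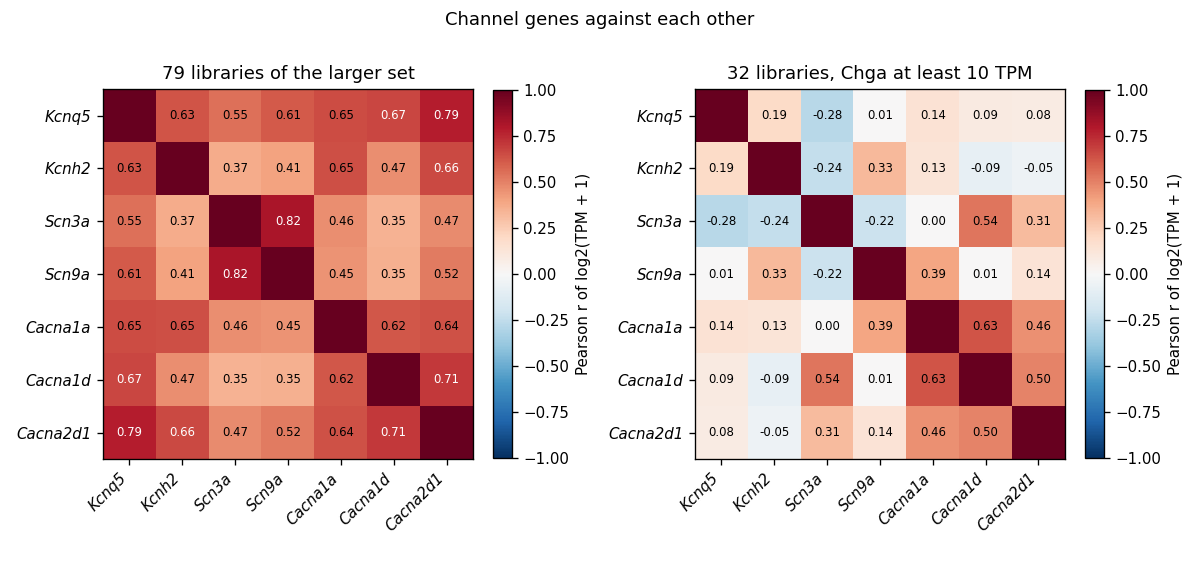
Pearson r of log2(TPM + 1) for each pair of channel genes in the 79 libraries (left) and in the 32 Chga-high libraries (right), from blue at -1 to red at 1. All pairs are positive on the left, whereas on the right the 3 calcium channel genes keep r of 0.458 to 0.628 and Kcnq5 lies between -0.278 and 0.190.

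The genes most like each channel gene differed by member. In the larger set the 5 genes closest to Kcnq5 included Rbm24, an RNA-binding protein of muscle (r = 0.909), Atcayos (0.902), Akap6, an anchoring protein of kinase A (0.887) and Gucy1a1, a subunit of the nitric oxide receptor (0.865). Kcnh2 was closest to Kcnip3 (0.889), Scn3a to Rab3c, a vesicle GTPase (0.846), and Scn9a to Pnmal1 (0.986) and Nefm (0.984). The filter on levels was a mean of at least 1 TPM over all libraries, not within the set. In the larger set the medians of Rab3c, Pnmal1 and Nefm were only 0.06, 0.02 and 0.03 TPM, and that of Scn9a was 0.03 TPM. Cacna1a was closest to Dock6 (0.807), Cacna1d to Adamtsl1 (0.919) and Cacna2d1 to Prkg1, the cyclic GMP-dependent kinase of smooth muscle (0.922). Each of these r was at least 0.781 when the 2 libraries most extreme in the channel gene were left out. In the 36 libraries of the smaller set Kcnh2 was again closest to Kcnip3 (0.833), Cacna1d to the sodium channel Scn8a (0.913) and Scn3a to Tmem169 (0.938). No gene with a mean of at least 1 TPM passed with Kcnq5 there, the nearest being Plcb4 (r = 0.579, adjusted p = 0.174). Over the 32 libraries Scn3a and Tmem169 had r = 0.881, and 0.465 without the 2 libraries of low Scn3a. Scn8a kept r = 0.837 with Cacna1d, whereas Kcnip3 was not among the 3 genes nearest to Kcnh2 there.

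Each channel gene was also read against the mean z-score of each marker list, and differences between the lists were not tested. In the larger set Scn9a had its highest r with peripheral neurons (0.959) and nearly the same with the neuroendocrine list (0.950), and Scn3a had 0.811 and 0.792. Kcnq5 was highest with Schwann cells (0.806), ahead of endothelial cells (0.700). Cacna1a was highest with Schwann cells too (0.633). Kcnh2 was highest with smooth muscle (0.707). Cacna1d was highest with fibroblasts (0.787), ahead of endothelial cells (0.696). Cacna2d1 had 0.791 with endothelial cells, 0.719 with fibroblasts, 0.716 with smooth muscle and 0.713 with Schwann cells. These lists are broad in the larger set, since 36.9% of all genes rose with the peripheral neuron list, 40.9% with the neuroendocrine list, 72% with the Schwann cell list, 56.6% with smooth muscle, 67.4% with fibroblasts and 73.4% with endothelial cells. Over the 36 libraries of the smaller set 6 of the 7 rose with the neuroendocrine list (15.7% of all genes did), the exception being Kcnq5 (adjusted p = 0.0566), and 4 rose with peripheral neurons (5.9% of all genes). There Scn3a, Cacna1d and Cacna2d1 fell with luminal cells (r = -0.633, -0.532 and -0.493, where 17.6% of all genes fell), and the same 3 fell with fibroblasts (14.4%) and endothelial cells (14.2%). In the 32 libraries only Scn3a passed with any list. Its r was -0.644 with skeletal muscle, where 0.842% of all genes fell, -0.528 with Schwann cells (4.35% fell), -0.499 with luminal cells (8.19% fell) and 0.603 with proliferation, where 14.9% rose. Without the 2 libraries of low Scn3a these were -0.412, -0.184, -0.194 and 0.093. The part of these cell types in the levels of the channel genes was not tested.

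**Figure D4:**
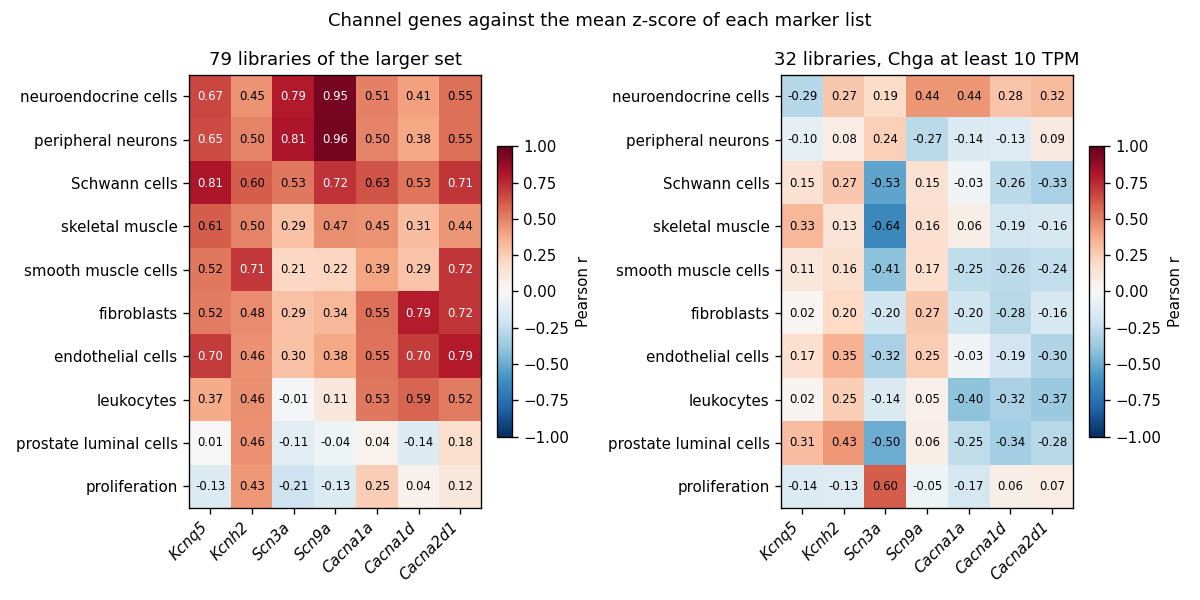
Pearson r of each channel gene with the mean z-score of 10 marker lists in the 79 libraries (left) and the 32 Chga-high libraries (right). On the left Scn9a is highest with peripheral neurons (0.96), Kcnq5 with Schwann cells (0.81) and Cacna1d with fibroblasts (0.79); on the right the value farthest from 0 is that of Scn3a with skeletal muscle (-0.64), which is -0.412 without the 2 libraries of low Scn3a.

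Kcnq5 was also set against the genes within 2 Mb of it on chromosome 1. Gm26580, a long noncoding RNA on the opposite strand at 21959842-21962530 that shares 237 exon bases with the 5′ end of Kcnq5, rose with Kcnq5 in the larger set (r = 0.782), in the 36 libraries (0.804) and in the 32 (0.772, adjusted p = 0.00526). It was the only gene of all those tested that rose with Kcnq5 in the 36 libraries or in the 32 (0.00432% of genes in each). Its median was 0.11 TPM in the larger set and 0.53 TPM in the 32. The library kit is not described as stranded, and 60 of 7987 windows of Kcnq5 transcripts, each as long as a trimmed read, occur in Gm26580 on either strand, so reads of the overlap cannot be told apart. Gm38243, which lies in an intron on the same strand, had r = 0.599 in the larger set and 0.377 in the 32 libraries (adjusted p = 0.764). Gm36949, also intronic and under the filter at a median of 0.02 TPM over all libraries, had r = 0.543 in the larger set (permutation p = 1e-05, the smallest that 100000 resamples can give) and 0.626 in the 32 (permutation p = 0.00011). Rims1, a presynaptic scaffold, Pkhd1 and Gsta3 rose with Kcnq5 in the larger set (r = 0.707, 0.484 and 0.450) where 65% of genes did, and had r of -0.192, 0.295 and 0.138 in the 32. Ogfrl1 fell with Kcnq5 in the larger set (r = -0.251, adjusted p = 0.0387, where 1.02% of genes fell). Without the 2 libraries most extreme in Kcnq5 its r there was -0.176. Over the 36 libraries r was 0.289 and over the 32 it was 0.0635, and neither passed.

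**Figure D5:**
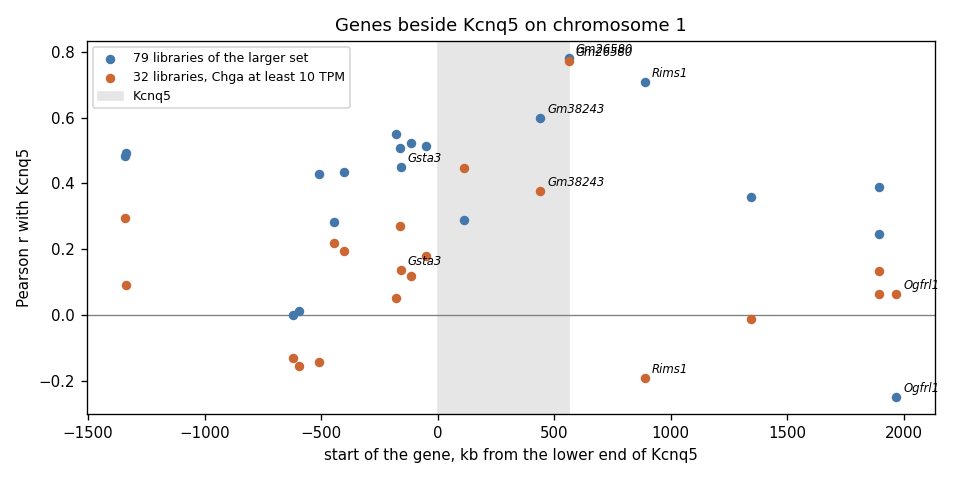
Pearson r with Kcnq5 (vertical axis) of the genes starting within 2 Mb of it, by distance in kb from the lower end of Kcnq5 (horizontal axis, gray band Kcnq5 itself); blue is the larger set, orange the 32 Chga-high libraries. Gm26580, at the 5′ end of Kcnq5, lies at 0.782 and 0.772, whereas Rims1 lies at 0.707 and -0.192.

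Some of the other levels carry a similar limit. Cacna1d shares 589 exon bases with Chdh on the opposite strand (3.64% of its windows of read length), and Chdh had a median of 5.57 TPM in the larger set, above that of Cacna1d. Cacna1a shares 435 exon bases with Gm16183 and Scn9a 180 with Gm13629, both at medians under 0.05 TPM over all libraries. Of the Scn3a windows 1.71% also occur in Scn1a, Scn2a, Scn9a or Gm13629. Kcnh2 and Cacna2d1 shared none.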

How the data were processed

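RNA from snap-frozen tissue, labelled as bulk tumor, was depleted of ribosomal RNA and sequenced as 126-base read pairs. Per the study's methods the first 17 bases and the last base were trimmed and reads were mapped to diploid genomes with C57BL/6 and WSB variation. The submitters' processing notes name CASAVA 1.8.2, RSEM 1.2.20, Bowtie2 2.2.5 and GRCm38, and the annotation release is not given in the sources used here. The authors deposited TPM per gene and library, which were used as deposited, without counts or depth, so no interval from counting could be given. In each library 42.8-75.6% of TPM was RNA of genes named Rn7 (7SK and 7SL RNA), which lowers the TPM of other genes. Gene names and positions came from GENCODE M21 on GRCm38 (45136 of 45699 identifiers matched), and promoters from RefSeq. The members and lists were chosen with earlier results of these data known. All libraries have 1 label. The methods of the study describe fewer F2 prostates with RNA-seq than the table has libraries, and all libraries of the table were used.

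Sets came from a normal mixture of 2 components on the first principal component. Values were log2(TPM + 1), genes averaging 0.1 TPM or more over all libraries were fitted with limma 3.58.1 (R 4.3.3, trend and empirical Bayes) on the gene named, and Benjamini-Hochberg adjustment ran over all genes tested at a threshold of 0.05. Fits were also run on simulated data in which each gene varied independently apart from seeded slopes. Those data lack the variation shared between genes here, so they cannot show how the calls behave under it. Pearson r and Spearman rho have two-sided permutation p (100000 resamples; Python 3.11.15, scipy 1.17.1). Genes named besides the members were, for each member, the 5 with the highest r in the larger set and 3 in the smaller among those with a mean of at least 1 TPM, up to 3 called genes per list, defining markers at 0, called genes within 2 Mb of Kcnq5 with Gsta3, Pkhd1 and Gm36949, and genes sharing exon bases. Not all genes so allowed are named. The level of Insm1 and the split at 10 TPM of Chga in the smaller set were chosen after the values were seen. A few results are not reported here. The motifs CAGCTG, TTCAGCACC, TGACGTCA and GGGCGG were listed after the promoters had been read, and a search with TGACGT and GGACAG, picked because they occurred there, was dropped. P-values measure the spread between libraries, each taken as 1 mouse. The names W7822 and W78022 are alike, and the labels do not say whether both come from 1 mouse. Their r over genes averaging at least 1 TPM was 0.955, where the highest between libraries was 0.974. Without W78022 all 7 channel genes still rose with Chga in the larger set.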

Additional observations from a re-analysis of the deposited data

How the results depend on the processing

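No paired analysis was possible because every library carries the same label. Among the alternatives, the parts of a mixture on Chga are not the 2 sets. In them 4 libraries of the larger set and W1118, W1050 and W1915 of the smaller set change places. In the larger set the count of channel genes that rose with Chga (7) was 5 of 5 tested with a mean of at least 1 TPM, where Kcnq5 and Scn9a were not tested, 6 with the first principal component as covariate (without Cacna1d), 5 in the parts of a mixture on Chga (without Cacna1d and Cacna2d1) and 7 under the other 8 alternatives. The count of all genes rising (4396) became 2741 with median-of-ratios scaling, 2739 with a mean of at least 1 TPM (fewer genes tested), 9472 with the neuroendocrine list in place of Chga, 2384 with the first principal component as covariate and 7052 in the parts of a mixture on Chga. The count falling (28) became 624 after rescaling without the 20 most abundant genes, 1672 with median-of-ratios scaling, 290 with the neuroendocrine list, 1148 with the covariate, 4 by ranks and 44 without the 2 libraries farthest in Chga. In the smaller set the 7 channel genes became 2 with the covariate, 1 by ranks and 0 over the 32 libraries. Their count became 6 without the filter on low values, 6 with the neuroendocrine list, 5 in the mixture parts and 5 without the 2 farthest libraries. With a mean of at least 1 TPM 5 of 5 tested rose. Kcnq5 did not pass with the covariate, by ranks or over the 32. Nor did it in the mixture parts (adjusted p = 0.645), with the neuroendocrine list (0.0566) and without the 2 farthest libraries (0.310). Genes rising (2013) became 4117 after rescaling, 3645 with the neuroendocrine list, 4971 in the mixture parts, 232 by ranks, 738 without the 2 farthest libraries and 1117 over the 32. Genes falling (4447) became 779 with the covariate, 16 by ranks, 1186 without the 2 farthest libraries and 31 over the 32. Pairs that passed in the smaller set (6) became 11 with a pseudocount of 0.1, 18 after rescaling and 2 with the covariate. Pairs that turned sign there, none of which had passed, were Kcnq5 with Scn3a (r = -0.0716 with the covariate and -0.278 over the 32), Scn3a with Cacna1a (-0.186 with the covariate) and, over the 32, Kcnh2 with Scn3a (-0.238), Kcnh2 with Cacna1d (-0.0851), Kcnh2 with Cacna2d1 (-0.0531) and Scn3a with Scn9a (-0.215). Rescaling raised the median over all libraries of Kcnq5 from 0.53 to 1.51 TPM and of Kcnh2 from 3.86 to 11.6 TPM, by construction, as the most abundant genes leave the total. Where not stated, the cause was not tested. The alternative over the 32 libraries and those against marker lists were chosen after seeing the data. TPM keeps no depth, so the precision of levels near 0, as for Scn9a in the larger set, is unknown.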
